A study of Mus musculus with 15 samples.

Results

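Cathepsins are proteases found mainly in the lysosome, and cystatins are inhibitors of the cysteine cathepsins among them. The 10 genes described here are 2 cystatins (Cstb and Cst3) and 8 cathepsins (Ctsb, Ctsl, Ctss, Ctsz, Ctsc, Ctsa, Ctsd and Ctse), taken as every probe set whose platform annotation gives 1 of these symbols alone. They had 22 probe sets of the 45037 on the array that were not controls, and 10 of the 18193 genes with a symbol. The members were chosen by symbol with the log2 signals of these same arrays in H1, H2 and normal cells already known, so their differences between groups are a description with standard errors. The number of members past the threshold applied to all genes is counted only beside the share of all genes past it, and is no test of the members.

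The study profiled early hyperplastic lesions and normal cells cut by laser capture microdissection from frozen sections of mouse lung. The mice were K-RasG12V knock-ins whose allele also drives a colour marker of the cells expressing it, and all had received adeno-CRE in vivo, an adenovirus carrying the recombinase Cre, 3 months earlier. The lesion samples held about 500 cells each, were named H1 (3 arrays, replicates 2 to 4) or H2 (4 arrays, replicates 1 and 5 to 7), and were set against normal cells from the same sections (8 arrays, replicates 1 to 8). The normal cells therefore came from the same infected knock-in animals and not from wild-type or uninfected mice. The sources used here give no basis for the names H1 and H2, no age or number of animals, no record of which samples shared an animal and nothing on which cells the virus recombined. Regions of 1 animal are not independent, so p-values over regions may be too small or too large.

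Cathepsins are made as inactive precursors, carried to the lysosome by mannose 6-phosphate receptors and activated there at acid pH. The cysteine cathepsins (B, L, S, Z and C) and the aspartic cathepsins (D and E) cut proteins and peptides by different active sites, and cathepsin A is a serine carboxypeptidase that also protects other lysosomal enzymes. In lung, macrophages carry many of these enzymes, and alveolar type 2 cells use cathepsin H, a relative outside the 10, to process surfactant proteins in a lysosome-related organelle.

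Values are log2 signals, so a difference of 1 is a doubling of signal, and they are compared within a probe set and not between genes. A gene with several probe sets is represented by the one of highest mean across the 15 arrays. In a bulk sample, fewer cells of a type and less RNA per cell cannot be told apart. The standard deviation of log2 signal over genes, a measure of how widely an array's own values spread, was 1.31 to 1.49 on H1, 1.52 to 1.78 on H2 and 1.14 to 1.67 on normal arrays. Normal replicates 2 and 8 were the narrowest, at 1.14 and 1.2, and values without them are given beside several members they move.

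Promoter windows were found in RefSeq for 7 of the 10 genes (Cst3, Ctsa, Ctsc, Ctsd, Ctsl, Ctss and Ctsz), with 2 windows for Ctsa. The 250 bases before the annotated start were searched on both strands for TCACGTGA, the core letters of the element that TFEB-family regulators of lysosomal genes bind, for its inner hexamer CACGTG, and for a pair of GAAA runs 2 bases apart on the same strand, letters of interferon-response elements. Capitals below mark every match, each sequence runs 5′ to 3′, and the build is GRCm38.p6. Ctsd and Ctsa are shown because they hold the TCACGTGA match, Ctss because it holds the only GAAA pair among these windows, and Ctsc because most of its lesion arrays lay above the normal range and its window holds none of the 3.
Ctsd (chr7:142387828-142388077, minus strand): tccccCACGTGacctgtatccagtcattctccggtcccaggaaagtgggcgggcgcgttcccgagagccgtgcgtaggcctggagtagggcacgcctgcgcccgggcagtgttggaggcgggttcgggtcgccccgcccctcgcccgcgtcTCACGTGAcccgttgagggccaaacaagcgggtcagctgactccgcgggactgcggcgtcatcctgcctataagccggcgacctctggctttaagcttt
Ctsa (chr2:164833523-164833772, plus strand): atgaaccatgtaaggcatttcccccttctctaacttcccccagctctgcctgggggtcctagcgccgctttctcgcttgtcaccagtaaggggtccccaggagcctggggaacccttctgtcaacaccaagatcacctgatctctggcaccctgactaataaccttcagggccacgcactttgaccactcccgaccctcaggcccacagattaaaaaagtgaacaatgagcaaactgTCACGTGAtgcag
Ctss (chr3:95526536-95526785, plus strand): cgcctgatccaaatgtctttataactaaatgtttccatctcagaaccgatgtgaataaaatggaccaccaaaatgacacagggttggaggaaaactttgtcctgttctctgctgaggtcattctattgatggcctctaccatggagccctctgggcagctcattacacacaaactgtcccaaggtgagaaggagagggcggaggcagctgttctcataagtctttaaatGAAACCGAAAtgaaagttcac
Ctsc (chr7:88277835-88278084, plus strand): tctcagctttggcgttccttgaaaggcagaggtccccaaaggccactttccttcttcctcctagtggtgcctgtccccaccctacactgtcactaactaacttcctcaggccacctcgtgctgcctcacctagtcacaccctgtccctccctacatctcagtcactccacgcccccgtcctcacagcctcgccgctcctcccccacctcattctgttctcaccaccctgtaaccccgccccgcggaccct

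TCACGTGA was in 2 of the 8 member windows and in 0.785% of all 32851 windows of this length. Its first base lay 99 bases before the start of Ctsd and 13 bases before that of Ctsa. CACGTG, which every TCACGTGA match contains, was in 3 of the 8 windows and in 6.02% of all windows. Ctsd held it a further time, 245 bases before the start, and Ctsl held it 236 bases before the start. The GAAA pair was in 1 of the 8 windows (Ctss, 21 bases before the start) and in 2.98% of all windows. A match describes these letters only, and nothing about binding was measured.

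Cstb encodes cystatin B, an inhibitor of cysteine cathepsins inside the cell. It was the member whose lesion and normal arrays were fully apart on the probe set that stands for the gene. Its log2 signal was 9.36, 10.34 and 9.86 on the 3 H1 arrays and 10.79, 10.39, 10.47 and 10.28 on the 4 H2 arrays, against a lowest of 6.12, a median of 8.55 and a highest of 9.31 on the 8 normal arrays. All 7 lesion arrays lay above the highest normal array, the lowest H1 array by a narrow margin. Mean signal was 9.85 ± 0.49 in H1 (SD, n = 3), 10.48 ± 0.22 in H2 (SD, n = 4) and 8.32 ± 0.97 in normal cells (SD, n = 8). The difference from normal was 1.54 ± 0.48 (SE) for H1, a 2.90-fold higher signal, and 2.17 ± 0.43 for H2, a 4.49-fold higher signal. Without normal replicates 2 and 8 it was 1.14 for H1 and 1.77 for H2. After quantile normalization of the deposited values it was 1.36 ± 0.44 (SE) for H1 and 1.18 ± 0.40 for H2, so H2 was no longer the higher. The other Cstb probe set differed from normal by 0.28 in H1 and 0.64 in H2, and there the groups overlapped. It read 5.16 to 5.59 on H1 arrays, 5.43 to 5.95 on H2 arrays and 4.41 to 5.53 on normal arrays.

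Cst3, which encodes the secreted inhibitor cystatin C, had no such gap. Its signal was 6.47, 6.03 and 6.72 on H1 arrays and 5.27, 7.67, 6.91 and 7.53 on H2 arrays, against a lowest of 5.76, a median of 6.23 and a highest of 8.00 on normal arrays. The H2 arrays alone ran from below the lowest normal array to near the highest. The difference from normal was 0.02 ± 0.48 (SE) for H1 and 0.46 ± 0.43 for H2, each smaller than or close to its standard error.

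**Figure D1:**
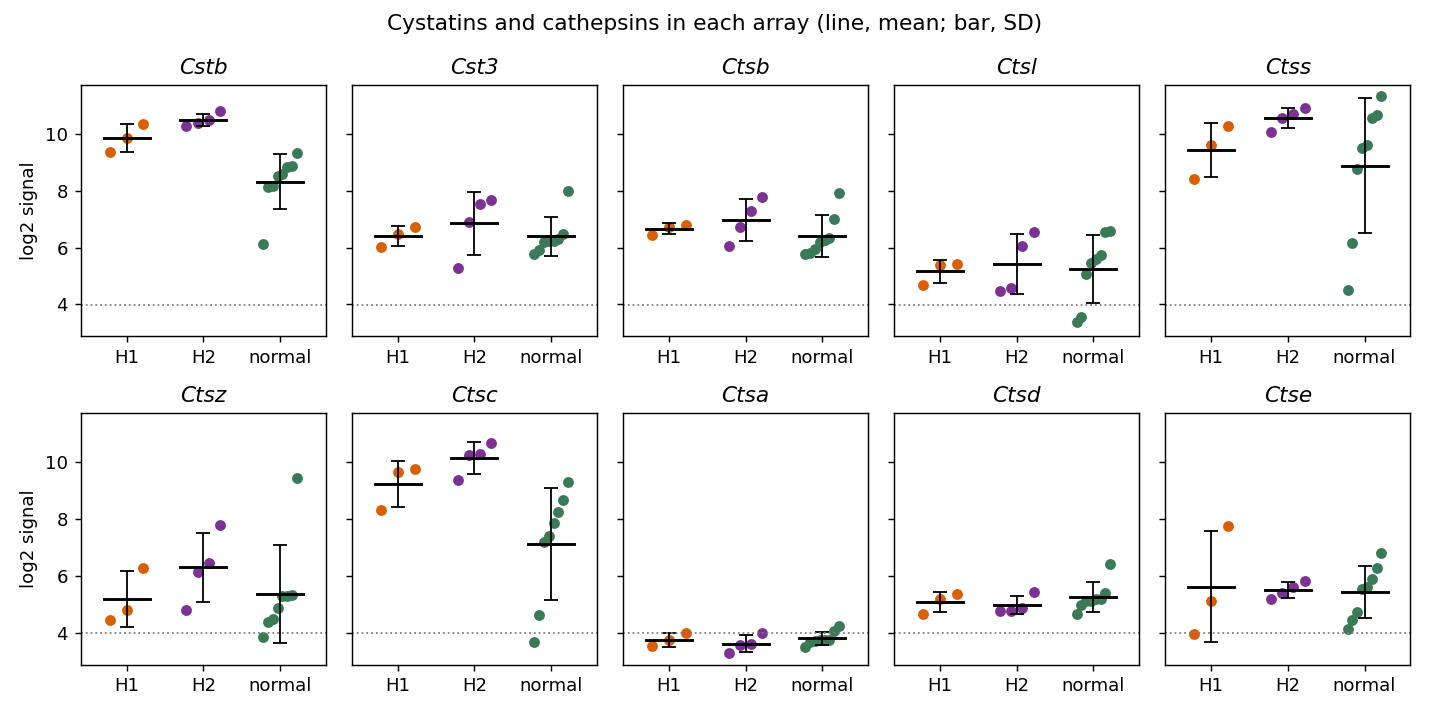
Log2 signal of the 10 genes (1 panel each) on every array, with H1 left, H2 next and normal cells right; each point is 1 array, the thick line is the group mean, the error bar is the SD, and the dotted line at 3.99 is the median of all probe set means. Cstb lesion arrays lie above all 8 normal arrays, Ctsc lesion arrays do so except for 1 H1 array, and Ctsa lies near the dotted line throughout.

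Of the cysteine cathepsin genes, Ctsc was the one with most lesion arrays above the normal range. It encodes cathepsin C, or dipeptidyl peptidase I, which activates serine proteases of granulocytes and lymphocytes by trimming their ends. Its signal was 8.31, 9.65 and 9.74 on H1 arrays and 9.37, 10.25, 10.68 and 10.28 on H2 arrays, against a lowest of 3.68, a median of 7.64 and a highest of 9.31 on normal arrays. All 4 H2 arrays and 2 of the 3 H1 arrays lay above every normal array, and H1 replicate 2 lay inside the normal range. Ctsc differed from normal by 2.11 ± 0.93 (SE) in H1, 4.32-fold higher, and by 3.02 ± 0.84 in H2, 8.11-fold higher. Normal replicates 2 and 8, at 3.68 and 4.63, held the 2 lowest values, and without them the difference was 1.12 in H1 and 2.03 in H2. Both other Ctsc probe sets had the same sign, at 1.48 and 0.71 in H1 and 0.53 and 1.11 in H2. On both, lesion and normal arrays overlapped. The first read 6.66, 4.15 and 4.38 on H1 arrays, 3.06 to 5.51 on H2 arrays and 2.49 to 5.05 on normal arrays. The second read 6.68 to 7.43 on H1 arrays, 6.83 to 8.04 on H2 arrays and 5.12 to 7.47 on normal arrays.

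Ctss encodes cathepsin S, which cuts the invariant chain during antigen presentation. Its signal was 8.40, 9.60 and 10.27 on H1 arrays and 10.68, 10.05, 10.89 and 10.55 on H2 arrays, against a lowest of 4.52, a median of 9.55 and a highest of 11.31 on normal arrays. All 7 lesion arrays fell within the normal range, which was the widest of the 10 genes. The difference from normal was 0.54 ± 1.11 (SE) in H1 and 1.66 ± 1.00 in H2. Without normal replicates 2 and 8 it was -0.64 ± 0.51 in H1, where the sign turned, and 0.48 ± 0.47 in H2.

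Ctsb encodes cathepsin B, a broad endo- and exopeptidase. Its signal was 6.45, 6.73 and 6.80 on H1 arrays and 6.06, 6.73, 7.28 and 7.78 on H2 arrays, against a lowest of 5.77, a median of 6.23 and a highest of 7.92 on normal arrays. Every lesion array lay within the normal range, and the difference from normal was 0.26 ± 0.42 (SE) in H1 and 0.56 ± 0.38 in H2. The normal mean of Ctsb was 6.41, and 6.61 without normal replicates 2 and 8. That is nearer to the means of 6.66 in H1 and 6.96 in H2. The 5 Ctsb probe sets did not move alike. One of them read 5.12, 3.67 and 4.15 on H1 arrays, 5.51, 5.83, 5.90 and 6.05 on H2 arrays and 3.38 to 6.37 on normal arrays (mean 4.44). On that probe set H2 was 1.38 above normal and H1 was 0.13 below it, while the other 4 probe sets lay between -0.22 and 0.41 from normal in H1 and between -0.13 and 0.56 in H2.

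Ctsl and Ctsz encode cathepsin L, an endopeptidase, and cathepsin Z, a carboxypeptidase. Ctsl read 4.69, 5.38 and 5.43 on H1 arrays and 4.56, 4.46, 6.06 and 6.55 on H2 arrays, against a lowest of 3.38, a median of 5.53 and a highest of 6.58 on normal arrays. Ctsz read 4.44, 4.79 and 6.29 on H1 arrays and 4.81, 6.44, 6.13 and 7.79 on H2 arrays, against a lowest of 3.86, a median of 5.08 and a highest of 9.44 on normal arrays. No lesion array of either gene left the normal range. The difference from normal for Ctsl was -0.08 ± 0.65 (SE) in H1 and 0.17 ± 0.59 in H2. Normal replicates 2 and 8 held the lowest Ctsl values, 3.38 and 3.58, and without them the difference was -0.67 ± 0.47 in H1 and -0.42 ± 0.43 in H2, where the sign turned. The other Ctsl probe set differed from normal by -0.38 in H1 and 0.41 in H2. For Ctsz the difference was -0.19 ± 0.90 (SE) in H1 and 0.93 ± 0.82 in H2. It was -0.59 in H1 and 0.53 in H2 without normal replicates 2 and 8, and 0.39 in H1 and 1.51 in H2 without normal replicate 3, the array at 9.44. The Ctsz probe set used is one that the array's naming marks as matching several transcripts. The same mark is on the probe set that stands for Ctse and on a further Ctsc probe set. The other 2 Ctsz probe sets differed from normal by -0.20 and -0.08 in H1 and by 0.21 and 0.28 in H2. Their means were below 3.99 in every group.

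The remaining cathepsins had small mean differences from normal on the probe sets that stand for them, though not every array stayed within the normal range. Ctsa, the serine carboxypeptidase, had group means of 3.74 in H1, 3.62 in H2 and 3.80 in normal cells. All are below 3.99, the median that probe set means had over the whole array, so its values say little about its transcript. Its other probe set had lower means still, and differed from normal by -0.05 in H1 and 0.53 in H2. Ctsd encodes cathepsin D, the main aspartic protease of the lysosome, and read 5.38, 4.67 and 5.17 on H1 arrays and 4.76, 4.88, 4.78 and 5.43 on H2 arrays, against a lowest of 4.65, a median of 5.15 and a highest of 6.43 on normal arrays. The Ctsd difference from normal was -0.18 ± 0.30 (SE) in H1 and -0.29 ± 0.27 in H2, with all lesion arrays inside the normal range. Ctse, the aspartic cathepsin of endosomes, read 5.11, 7.76 and 3.96 on H1 arrays, which lay above, within and below the normal range of 4.14 to 6.80, so its H1 mean of 5.61 ± 1.95 (SD, n = 3) stands for no single array. On H2 arrays Ctse was even, at 5.20, 5.39, 5.82 and 5.60, and its normal median was 5.57. The other Ctse probe set, with means below 3.99 in every group, differed from normal by -0.31 in H1 and 0.39 in H2.

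**Figure D2:**
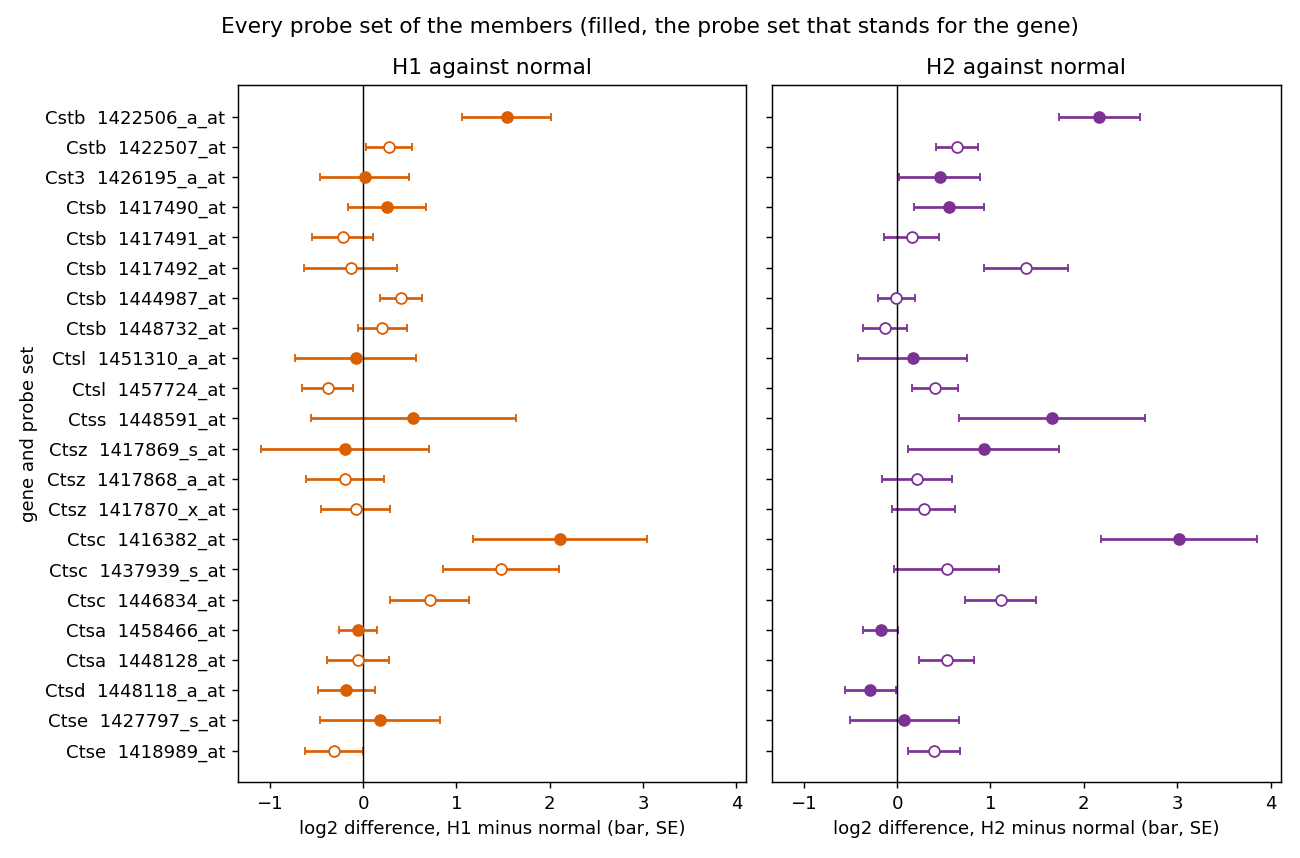
Log2 difference from normal of each of the 22 probe sets, with H1 and H2 shown separately; the filled point is the probe set that stands for its gene and the bars are standard errors. The Ctsc probe sets lie to the right of 0 in both lesion groups, and the 5 Ctsb probe sets scatter on both sides of it.

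Read as a list, 6 of the 10 genes had a higher mean in H1 than in normal cells, and 8 of 10 a higher mean in H2. Over all genes the share with a higher mean was 43.5% for H1 and 46.3% for H2. The median member difference was 0.10 in H1 and 0.51 in H2, beside medians of -0.05 and -0.04 over all genes. In limma, with Benjamini-Hochberg adjustment over all 18193 genes, 0 of the 10 passed an adjusted p of 0.05 in H1 against normal, where 0.011% of all genes did. At an unadjusted p below 0.05 there were 2 of the 10, beside 4.23% of all genes. In H2 against normal, 1 of the 10 (Cstb) passed, on the higher side, where 3.38% of all genes passed and 2.89% passed as higher. There 2 of the 10 had an unadjusted p below 0.05, beside 21.4% of all genes. With H1 and H2 pooled, 8 of 10 had a higher mean (42.3% of all genes) and 1 (Cstb) passed, where 0.291% of all genes did. An unadjusted p below 0.05 was then found for 2 of the 10, beside 12.8% of all genes. These contrasts were in view when the list was made, so nothing is read from the member counts. Groups without any overlap were seen for 1 member in H1 against normal (1.4% of all genes) and for 2 in H2 against normal (3.79% of all genes), Cstb in both and Ctsc in H2. The comparisons share the 8 normal arrays.

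On the probe sets that stand for the genes, H1 and H2 arrays overlapped in every member. The mean was higher in H1 for 3 of the 10 genes (Ctsa, Ctsd and Ctse) and lower for 7, with a median difference of -0.37. The differences of Ctss, -1.12 ± 1.25 (SE), Ctsz, -1.12 ± 1.02, and Ctsc, -0.91 ± 1.05, were each close to or under their standard errors. Cstb differed by -0.63 ± 0.54 and its 2 groups met, since H1 replicate 3 lay above H2 replicate 7. Over all genes, 18.2% had H1 and H2 arrays that did not overlap. By limma 0 of the 10 passed, beside 0.0055% of all genes, and 0 had an unadjusted p below 0.05, beside 12.3% of all genes. Other probe sets of the same genes differed. Of the 5 Ctsb probe sets, 1 read 3.67 to 5.12 on H1 and 5.51 to 6.05 on H2 (-1.51 ± 0.56, SE), and another read 3.53 to 4.05 on H1 and 3.21 to 3.34 on H2 (0.42 ± 0.25), so both were apart but in opposite directions. One further Ctsc probe set was higher in H1 than in H2, by 0.95 ± 0.70 (SE), opposite to the one that stands for the gene. The other probe sets of Ctsa and Ctse were lower in H1 than in H2, with differences of -0.58 and -0.70, opposite to the probe sets that stand for them. The Ctsb probe set at 0.42 and these Ctsa and Ctse probe sets had means below 3.99 in every group. Their values say little about the transcripts. With the array spread as a term in the fit, the difference of H1 from H2 was above 0 in all 10 genes, with a median of 0.47.

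**Figure D3:**
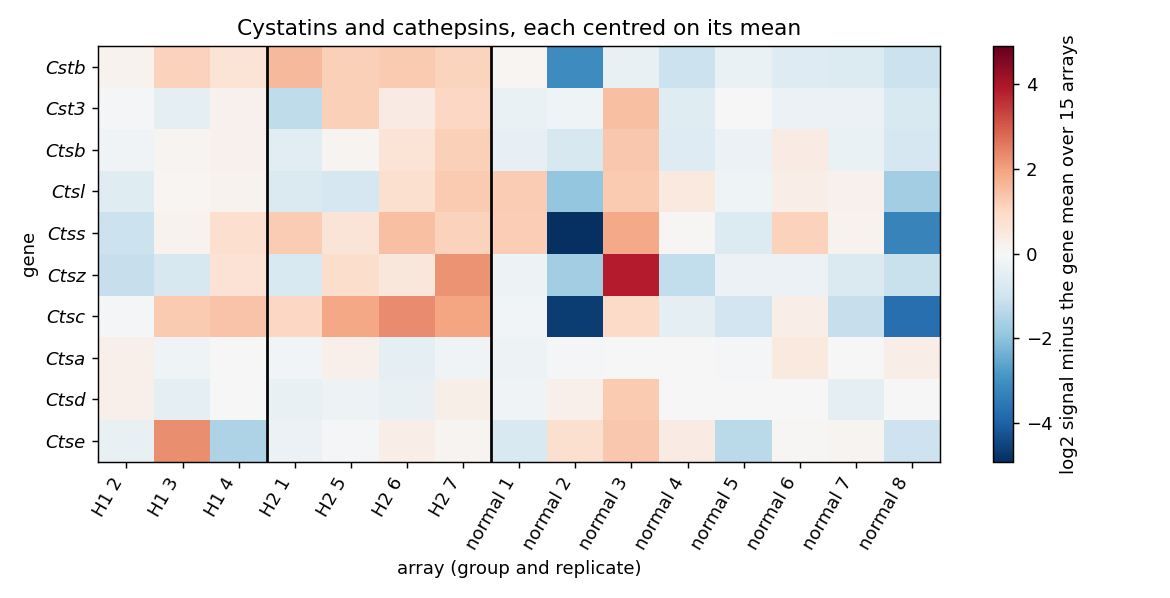
Log2 signal of each gene on each array minus its mean over the 15 arrays, with H1 left, H2 in the middle and normal cells right. Cstb and Ctsc are near or above their mean on all lesion arrays, Ctss and Ctsc are lowest on normal replicates 2 and 8, and Ctsz is highest on normal replicate 3.

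The members varied together in part. Over the 45 pairs, Pearson's r across the 15 arrays was positive in 33, with a median of 0.33, and ran from -0.44 to 0.89. The closest pairs were Ctsc with Ctss (0.895), Ctsb with Ctsz (0.888) and Cstb with Ctsc (0.883). Without normal replicates 2 and 8 these were 0.564, 0.874 and 0.803, so the first of them leaned on those arrays most. All arrays share the group differences and their spread, and the coefficients are given as a description.

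Of all other genes, the one whose pattern lay closest to that of Ctss was Lyz1, a lysozyme made by macrophages and alveolar type 2 cells in mouse (r = 0.985 over 15 arrays, 0.934 without normal replicates 2 and 8). Lyz1 read 10.78, 12.21 and 12.28 on H1 arrays and 12.54, 12.14, 12.86 and 12.46 on H2 arrays, against a median of 11.64 on normal arrays. For Ctsz it was Cd74, the invariant chain of class II antigen presentation (0.960, and 0.957 without those arrays). For Ctsc it was Rps3a1, a ribosomal protein gene (0.974 and 0.904), and for Cstb it was Scp2, a sterol carrier protein gene (0.968 and 0.926). For Ctsb it was Srpr (0.950), for Ctsl Mfsd1 (0.910), for Cst3 Ppp1ca (0.907), for Ctsd Ap3s2 (0.891), for Ctse 4930548H24Rik (0.817) and for Ctsa Zscan12 (0.813).

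Cell type markers moved with several members. The mean log2 signal of 11 alveolar type 2 markers was 7.76 to 9.11 on H1 arrays, 8.42 to 9.64 on H2 arrays and 5.09 to 9.42 on normal arrays, and all 11 had a higher mean in both lesion groups than in normal cells. Across the 15 arrays Ctsc followed that level with r = 0.964, and with r = 0.934 without normal replicates 2 and 8. Ctss had 0.897 and 0.702, and Cstb had 0.845 and 0.639. With the club and ciliated markers Cstb had 0.353 over the 15 arrays and 0.722 without normal replicates 2 and 8. Of those 8 markers, 5 were below 3.99 in every group. The 14 measured alveolar macrophage markers averaged 4.44 to 5.23 on H1, 5.22 to 5.99 on H2 and 4.14 to 5.59 on normal arrays, and 4 of them (Siglecf, Krt79, Cidec and Adgre1) were below 3.99 in every group. Ctss followed the macrophage level with r = 0.793, and 0.838 without those arrays, but over the 15 arrays it also followed the fibroblast and smooth muscle markers (0.883) and the alveolar type 1 markers (0.879). Endothelial markers averaged 4.25 to 4.71 on H1, 4.17 to 4.75 on H2 and 4.14 to 6.32 on normal arrays, and 8 of 8 had a lower mean in H1 than in normal cells. Other myeloid markers, 14 genes, averaged 4.45 to 4.79 on H1, 4.44 to 4.74 on H2 and 4.11 to 5.06 on normal arrays. Summed on the linear scale, the alveolar macrophage markers came to 490 to 1235 on H1, 1059 to 2230 on H2 and 287 to 2004 on normal arrays. The part of any cell type in the member differences was not tested.

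**Figure D4:**
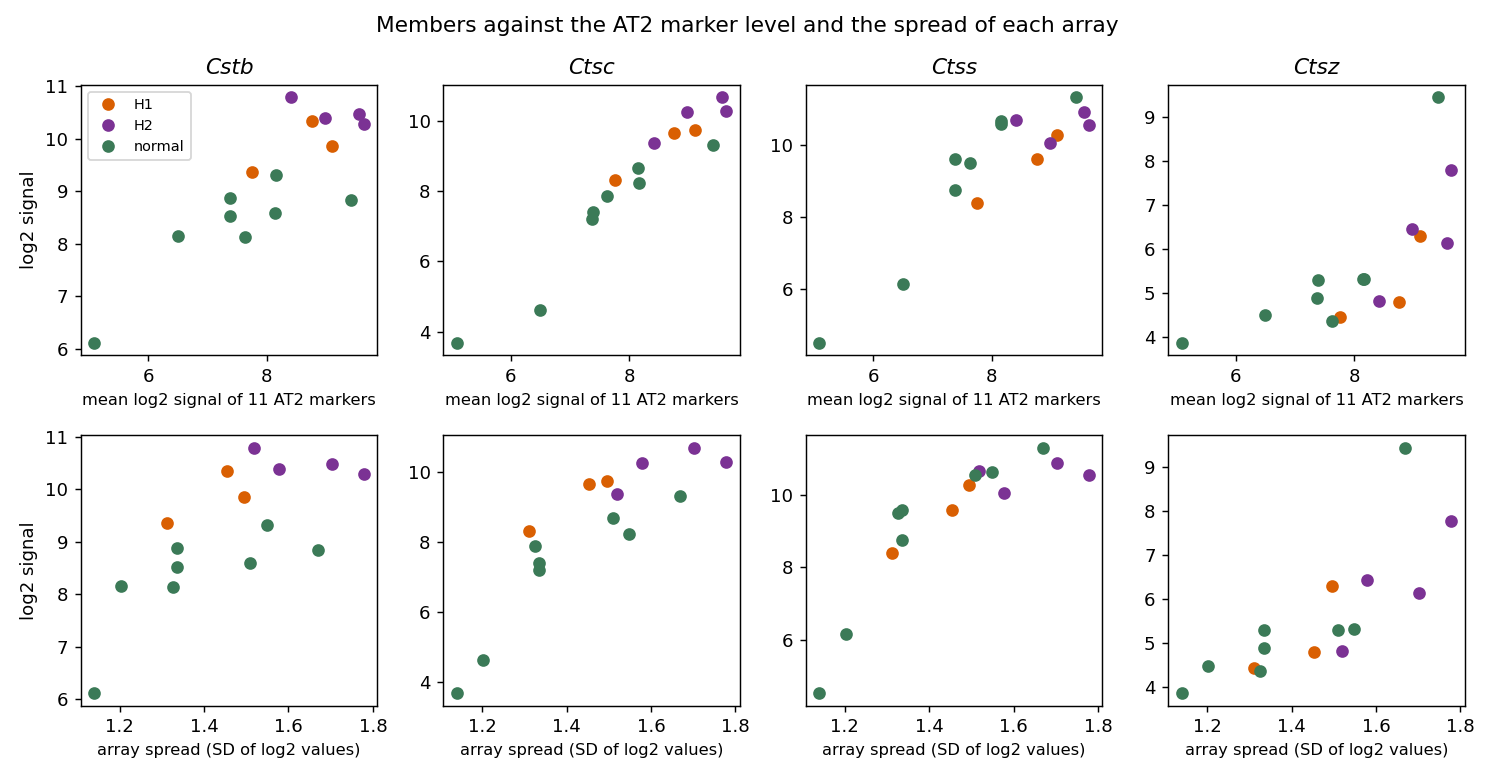
Log2 signal of Cstb, Ctsc, Ctss and Ctsz against the mean log2 signal of 11 alveolar type 2 (AT2) markers (top) and the spread of each array's log2 values (bottom), 1 point per array coloured by group. Ctsc climbs with the mean log2 level of alveolar type 2 markers (r = 0.964), and normal replicates 2 and 8 sit at the low end.

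The spread of an array's values moved with several members too, with r = 0.869 for Ctsc, 0.847 for Ctss, 0.840 for Ctsb and 0.727 for Cstb. Without normal replicates 2 and 8 these were 0.803, 0.823, 0.787 and 0.535. With that spread as a term in the fit, the difference from normal was 1.42 in H1 and 1.34 in H2 for Cstb, and 1.78 and 0.71 for Ctsc. For Ctss it was 0.16 in H1 and -1.0 in H2, and for Ctsz -0.49 in H1 and -1.16 in H2. Ctsl was -0.31 in H1 and -1.49 in H2, Ctsb 0.12 and -0.42, Cst3 -0.09 and -0.29, and Ctse 0.13 and -0.27. These 6 genes, all above normal in H2 without the spread term, were below it with the term. The median over the 10 genes in H2 became -0.35. All 4 H2 arrays had a wider spread than 6 of the 8 normal arrays, and how much of each difference belongs to it was not tested.

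The wider lysosomal pathway was taken as 5 lists of 114 further genes, 101 of them measured. In H2 against normal, 5 of the 101 passed the limma test, all higher, where 3.38% of all genes passed and 2.89% passed as higher. In H1 against normal 0 passed, where 0.011% of all genes did, and 3 had an unadjusted p below 0.05, beside 4.23% of all genes. With lesions pooled 1 of the 101 passed, beside 0.291% of all genes. In H1 against H2 0 passed, beside 0.0055% of all genes, and 12 had an unadjusted p below 0.05, beside 12.3% of all genes.

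Ctsh, 1 of 15 other cathepsins measured and the enzyme that processes surfactant protein B, separated lesions from normal cells as Cstb did. It read 7.63, 9.50 and 9.22 on H1 arrays and 9.63, 9.99, 9.77 and 9.91 on H2 arrays, against a lowest of 3.68, a median of 6.36 and a highest of 7.59 on normal arrays. All lesion arrays were above every normal array, H1 replicate 2 only just. Ctsh rose by 3.48 ± 0.59 (SE) in H2, an 11.2-fold higher signal (limma adjusted p = 0.00731), and by 3.03 ± 0.51 in pooled lesions (limma adjusted p = 0.0255). In H1 it was 2.44 ± 0.65 above normal and did not pass (limma adjusted p = 0.997). H1 and H2 differed by -1.04 ± 0.73 in Ctsh (limma adjusted p = 0.547). The pooled call was lost when any 1 of H2 replicates 5, 6 and 7 or normal replicates 4, 5, 7 and 8 was left out, with an adjusted p of at most 0.0719, and the H2 call was kept in all 15 such fits.

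The other cathepsins gave no further call. In H2 against normal 5 of the 15 had a higher mean and 10 a lower one. Most of the 15 had H1 means below 3.99, such as Ctsj (2.43) and Cts7 (2.16), so these directions say little. Ctsk, the collagen-degrading cathepsin of osteoclasts, averaged 3.42 in H1, 3.45 in H2 and 3.13 in normal cells, all below 3.99. Ctsf averaged 5.15 in H1, 4.02 in H2 and 4.78 in normal cells, and Ctso averaged 5.19 in H1, 4.48 in H2 and 5.07 in normal cells. Of 18 other cystatins 12 were measured, 0 passed the limma test in any comparison, and 2 of the 12 had a higher mean in H2 than in normal cells, beside 46.3% of all genes. In that comparison 0 of the 12 had an unadjusted p below 0.05, beside 21.4% of all genes. Most of the 12 also had H1 means below 3.99, such as Cst13 (2.43) and Cst7 (2.81), while Cst6 (5.08) and some others did not. The share with a higher mean is therefore not read as a drop of cystatins.

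Of 33 measured lysosomal hydrolases and activators, 2 rose in H2, beside 2.89% of all genes. The list held 18 higher and 15 lower means. At an unadjusted p below 0.05 there were 6 higher and 2 lower, beside 21.4% of all genes in either direction. Manba, a beta-mannosidase, averaged 5.07 in H2 and 3.68 in normal cells, a difference of 1.39 ± 0.29 (SE, limma adjusted p = 0.0189). Scpep1, a serine carboxypeptidase like cathepsin A, averaged 4.76 in H2 and 3.34 in normal cells, a difference of 1.42 ± 0.34 (SE, limma adjusted p = 0.0341). Manba and Scpep1 were below 3.99 in normal cells and in H1 (3.74 and 2.95). The size of their rises in H2 is therefore uncertain. The Manba call was lost without H2 replicate 5 or 7, and the Scpep1 call without any 1 of the 4 H2 arrays or normal replicates 4, 5, 7 and 8. Fuca1 and Npc2, the next by p, were 1.36 and 1.92 above normal and did not pass.

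Of 27 measured membrane proteins and proton pump subunits, 2 rose in H2, beside 2.89% of all genes, both subunits of the pump that acidifies the lysosome. The list held 17 higher and 10 lower means. At an unadjusted p below 0.05 there were 6 higher and 3 lower, beside 21.4% of all genes in either direction. Atp6v1d averaged 9.35 in H2 and 6.81 in normal cells, a difference of 2.54 ± 0.57 (SE, limma adjusted p = 0.0272). Atp6v1e1 averaged 7.51 in H2 and 6.36 in normal cells, a difference of 1.15 ± 0.29 (SE, limma adjusted p = 0.0379). The Atp6v1d call was lost without H2 replicate 1, 6 or 7 or normal replicate 5, and the Atp6v1e1 call in 10 of the 15 fits that left out 1 array: H1 replicates 3 and 4, any H2 array, and normal replicates 2, 5, 7 and 8. Another subunit gene of the pump, Atp6v1g1, was 2.08 above normal in H2 and Lamp2, a lysosomal membrane protein, was 1.64 above it, and neither passed. Of 14 enzyme sorting and TFE-family genes 0 passed in H2 against normal and 2 had an unadjusted p below 0.05, beside 21.4% of all genes. Sort1, a sorting receptor, was 1.06 below normal in H2 (limma adjusted p = 0.0708) and Gnptab, which makes the mannose 6-phosphate tag, was 0.78 above it (limma adjusted p = 0.0818).

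With the array spread in the fit, Ctsh was 2.22 above normal in H1 (limma adjusted p = 0.0243) and 1.96 above it in H2 (limma adjusted p = 0.043), and passed in both. Manba, Scpep1, Atp6v1d and Atp6v1e1 were then 1.02, 1.08, 1.36 and 0.56 above normal in H2, and none of the 4 passed (limma adjusted p of 0.185 to 0.402).

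**Figure D5:**
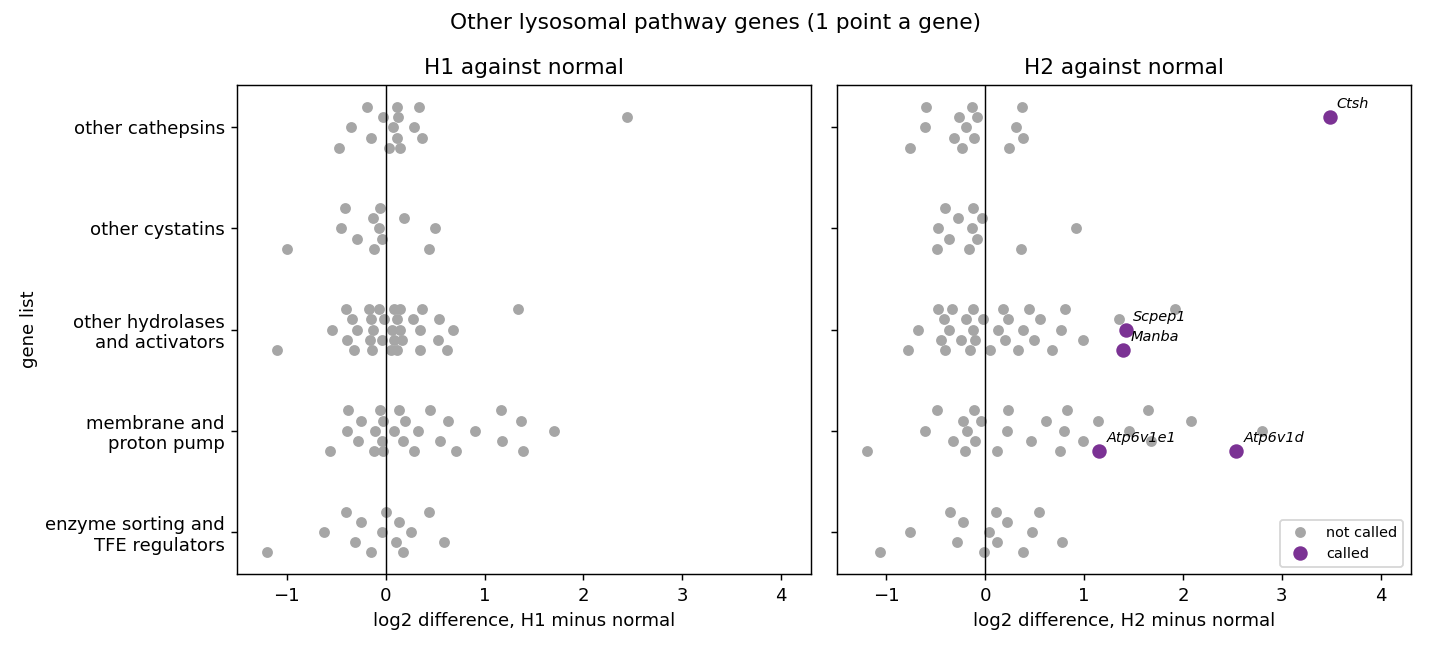
Log2 difference from normal of each gene in the 5 pathway lists, for H1 left and H2 right; purple points with a name passed the limma test (called) and grey points did not. Ctsh lies farthest to the right in H2, and the 5 genes that passed are all on the higher side.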

How the data were processed

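Labels place 15 arrays in H1 (3), H2 (4) and normal (8). The authors deposited log2 signal per probe set; per the submitters' processing notes it was made with affy and RMA, versions not given in the sources used here, and per the labels' protocols RNA was amplified from captured cells and labelled before hybridisation. Of 45101 probe sets, 64 controls were left out; 34945 carried 1 symbol in the platform annotation, 932 several and 9160 none, and only the first kind was used. One probe set a gene, that of highest mean over all arrays, left 18193 genes. Promoter sequences and names come from RefSeq (GRCm38.p6).

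Differences, standard errors and adjusted p-values came from limma 3.58.1 (R 4.3.3; lmFit and eBayes, Benjamini-Hochberg over all genes, called at 0.05), with 3 groups in 1 fit for H1, H2 and normal and 2 groups for pooled lesions; the steps were tested on simulated data. RMA equalises probe intensities, so probe set values can still differ in spread between arrays. The number of arrays limits the precision. No 2 arrays were near copies (highest correlation between any pair 0.936). All 10 members are named; of the pathway lists, the genes called in any comparison and up to 2 further per list by p. The members and lists were chosen with earlier results of these data known. Alternatives varied the normalization, the probe set rule, the dim filter, the prior, the arrays fitted, a replicate block, the array spread and each array in turn.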

Additional observations from a re-analysis of the deposited data

Results flagged for a closer look

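Of 20 checks for 1 array lying far from the rest of its group, 4 were met, all in normal cells. Chance alone gives about 1 in 20 (5%), but several members varied together over the arrays (Cst3 with Ctsz, r = 0.846). Checks met on the same array are therefore not separate events, and the 5% is no yardstick for their number. Cstb on normal replicate 2 was 6.12, with the nearest normal array at 8.13. On normal replicate 3, Ctsz was 9.44 with the nearest at 5.32, Cst3 was 8.00 with the nearest at 6.49, and Ctsd was 6.43 with the nearest at 5.40. Normal replicate 2 had the narrowest spread of values of the normal arrays, 1.14, and normal replicate 3 the widest, 1.67. Without normal replicate 2 the Cstb difference from normal was 1.22 ± 0.27 (SE) in H1 and 1.85 ± 0.25 in H2. Without normal replicate 3 the Ctsz difference was 0.39 ± 0.53 in H1 and 1.51 ± 0.49 in H2, that of Cst3 was 0.25 ± 0.40 and 0.69 ± 0.36, and that of Ctsd was -0.01 ± 0.23 and -0.12 ± 0.20.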

How the results depend on the processing

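Counts of members called are descriptive, since the members were chosen with these contrasts known. The count in pooled lesions (1, Cstb) was 0 under quantile normalization, under a trended and robust prior and with array spread as a covariate. The count in H2 (1, Cstb) was 0 under quantile normalization, the replicate block and the array spread covariate, and 2 (Cstb and Ctsc) with a filter on dim genes and without normal replicates 2 and 8, a setting chosen after seeing the data. Of the other pathway genes, pooled lesions went from 1 to 2 with the replicate block, H1 from 0 to 1 (Ctsh) with array spread, and H2 from 5 to 3 under quantile normalization, with the mean of all probe sets or with only the arrays compared, and to 1 with the replicate block or array spread. Leaving out 1 array at a time, the members called were 0 to 1 in pooled lesions, 0 in H1, 0 to 2 in H2 and 0 in H1 against H2. The pooled Cstb call was kept without H1 replicate 2 or normal replicates 1, 2 or 3 and lost without any other array, its difference running from 1.58 to 2.04; in H2 it was lost without H2 replicate 6 or 7. Other pathway genes called ran from 0 to 2 in pooled lesions, 0 in H1, 1 to 8 in H2 (1 without H2 replicate 7, 8 without normal replicate 3) and 0 in H1 against H2. The median member difference ran from 0.12 to 0.57 in pooled lesions, -0.03 to 0.38 in H1, 0.26 to 0.92 in H2 and -0.61 to -0.12 in H1 against H2. Replicate numbers were not taken as pairing the samples: over 7 same-numbered pairs, deviations from the group means correlated from -0.14 to 0.38 and 1 of 7 lesion arrays correlated best with its own number. The cause of these changes was not tested.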
